A study of Mus musculus with 17 samples.

Results

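The 8 genes described here encode peptides and receptors through which the hypothalamus governs reproduction: Gnrh1, Kiss1, Tac2, Kiss1r, Esr1, Esr2, Pgr and Prlr. They were chosen by name from 21887 protein-coding genes. Each was described by every peak of H3K27ac that overlapped its RefSeq span extended by 20 kb on either side, here called its window. These windows held 79 peaks, or 0.0430% of the 183678 peaks in the list. H3K27ac, the acetylated form of lysine 27 in histone H3, is found at promoters and enhancers in use.

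The tissue was mouse hypothalamus, and no genotype, treatment, strain, sex or age is given in the sources used here. Bulk CUT&Tag, in which an antibody brings the transposase Tn5 to marked chromatin in permeabilised nuclei, was carried out on 3 samples titled as biological replicates. Another 14 libraries, 7 of DNA and 7 of RNA, came from Paired-Tag, which reads histone marks (here H3K27ac and H3K27me3) together with RNA in single nuclei, and were not analysed here. One peak list stood for the 3 bulk samples together, so there is no value per sample, no spread between replicates and no test, the depth is unknown, and every value below is a description of this list.

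For each peak the list gives a fold, the enrichment of signal over background as the peak caller gave it, and a −log10 q, which grows as the false discovery rate of the peak falls. Over the whole list the median fold was 3.18, with quartiles of 2.60 and 4.24, the median −log10 q was 13.1, and the median width was 557 bp. Of 16 hypothalamus markers, 15 had a peak at the start, against 2 of 13 pituitary markers and 68.7% of all protein-coding genes. When only folds at or above the upper quartile were counted, these were 7 of 16 and 0 of 13, beside 59.4% of all protein-coding genes. Both lists, described further down, were written with earlier results of these data known. These counts are therefore no check of the tissue label.

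Gonadotropin-releasing hormone, made from the Gnrh1 product, is released from a small, scattered population of neurons into the portal blood and drives the pituitary gonadotropes. Kisspeptin, from Kiss1, stimulates these neurons through the receptor Kiss1r, and many kisspeptin neurons of the arcuate nucleus also make neurokinin B, from Tac2. Estrogen acts on kisspeptin neurons and other cells through the nuclear receptors encoded by Esr1 and Esr2, progesterone through that of Pgr, and prolactin through the cell-surface receptor of Prlr, which signals through JAK2 and STAT5.

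The RefSeq promoter table (GRCm38.p6, the assembly that mm10 denotes) matched 7 of the 8 genes, with 10 listed starts. Each promoter runs from 250 bases before the start to 50 after it. The promoters printed below show the contrast on which the results turn, between starts that lay inside a peak, starts beside one and starts without one. Capitals mark matches, on either strand, to the short motifs named after the sequences, and the lines read 5′ to 3′ along the gene. Tac2 (chr10:127724228-127724527, plus strand) and the first Esr1 start (chr10:4611739-4612038, plus) had no peak within 1 kb.
Tac2: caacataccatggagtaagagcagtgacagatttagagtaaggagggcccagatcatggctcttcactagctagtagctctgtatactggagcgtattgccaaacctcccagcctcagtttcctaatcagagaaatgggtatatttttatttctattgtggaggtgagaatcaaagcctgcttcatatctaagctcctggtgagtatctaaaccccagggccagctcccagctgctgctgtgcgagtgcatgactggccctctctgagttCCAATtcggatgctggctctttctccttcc
Esr1 start 1: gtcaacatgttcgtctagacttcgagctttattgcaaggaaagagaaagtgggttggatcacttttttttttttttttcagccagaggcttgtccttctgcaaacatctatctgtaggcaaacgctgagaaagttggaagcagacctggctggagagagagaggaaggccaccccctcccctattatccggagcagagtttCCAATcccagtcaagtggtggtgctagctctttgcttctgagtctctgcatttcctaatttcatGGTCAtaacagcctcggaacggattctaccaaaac
The promoters of Kiss1r (chr10:79916721-79917020, plus), of the second Esr1 start (chr10:4709908-4710207, plus) and of Esr2 (chr12:76177210-76177509, minus) had the start itself inside a peak.
Kiss1r: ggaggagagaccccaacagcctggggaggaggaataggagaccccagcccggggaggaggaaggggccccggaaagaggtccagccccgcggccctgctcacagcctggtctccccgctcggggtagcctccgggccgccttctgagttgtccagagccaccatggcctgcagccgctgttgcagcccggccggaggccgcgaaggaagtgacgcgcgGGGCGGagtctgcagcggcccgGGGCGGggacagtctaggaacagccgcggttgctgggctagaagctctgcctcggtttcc
Esr1 start 2: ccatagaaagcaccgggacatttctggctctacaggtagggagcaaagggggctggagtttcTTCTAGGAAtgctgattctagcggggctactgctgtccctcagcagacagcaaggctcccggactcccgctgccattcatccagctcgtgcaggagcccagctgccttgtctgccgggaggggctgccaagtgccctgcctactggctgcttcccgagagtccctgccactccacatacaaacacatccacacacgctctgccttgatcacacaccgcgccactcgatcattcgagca
Esr2: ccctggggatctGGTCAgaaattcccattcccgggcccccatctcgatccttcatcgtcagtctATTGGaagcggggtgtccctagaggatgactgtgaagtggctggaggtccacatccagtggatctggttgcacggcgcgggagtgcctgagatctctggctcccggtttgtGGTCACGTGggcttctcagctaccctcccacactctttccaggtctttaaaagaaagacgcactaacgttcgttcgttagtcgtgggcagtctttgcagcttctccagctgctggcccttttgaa
The promoters of Pgr (chr9:8899583-8899882, plus) and of the first Prlr start (chr15:10176988-10177287, plus) lay just before a peak that began after the start.
Pgr: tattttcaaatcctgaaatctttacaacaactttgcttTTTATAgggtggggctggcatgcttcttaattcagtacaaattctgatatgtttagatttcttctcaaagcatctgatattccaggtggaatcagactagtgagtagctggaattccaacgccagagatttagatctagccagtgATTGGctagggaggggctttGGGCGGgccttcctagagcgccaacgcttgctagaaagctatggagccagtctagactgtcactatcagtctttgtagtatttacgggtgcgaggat
Prlr start 1: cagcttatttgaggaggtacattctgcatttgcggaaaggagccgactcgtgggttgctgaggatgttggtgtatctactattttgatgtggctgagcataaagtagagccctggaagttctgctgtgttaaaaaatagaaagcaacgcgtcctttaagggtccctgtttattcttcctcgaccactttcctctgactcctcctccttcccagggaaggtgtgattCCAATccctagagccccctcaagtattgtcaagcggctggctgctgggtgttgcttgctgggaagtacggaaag

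Exact matches to 11 motifs were sought on both strands of the 10 promoters. The same was done for the 21263 promoters of protein-coding genes in the table, called all promoters in this paragraph. A match is a string of letters, not a shown site. The full estrogen response element (GGTCA and TGACC 3 bases apart) had no match in the 10 promoters, and 0.0517% of all promoters held it. The single arm GGTCA, held by 39.4% of all promoters, was in 3 of the 10: that of Kiss1 at positions -65 and -36 from the start, the first Esr1 promoter at 16 and Esr2 at -238 and -75. The match at -75 in Esr2 overlaps an E-box, CACGTG, at -72, a motif held by 7.84% of all promoters. CCAAT (38.2% of all promoters) was in 5 of the 10, those of Tac2, the first Esr1 start, Esr2, Pgr and the first Prlr start. GGGCGG, bound by SP factors (46.2%), was in those of Kiss1r, at -32 and -10, and Pgr, at -47, and Pgr also held TATAAA (12.6%) at -212. A STAT motif, TTCNNNGAA (7.69%), was in the second Esr1 promoter at -188 and in the second Prlr promoter at -110, with the same letters, TTCTAGGAA, in both. An AP-1 motif, TGANTCA (6.99%), was in the third Prlr promoter at -20. The progesterone response element (0.00941% of all promoters), the cyclic AMP response element TGACGTCA (2.23%) and the bicoid-class homeobox motif TAATCC (6.42%) had no match in the 10.

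All 8 genes had at least 1 peak in the window, as did 81.5% of protein-coding genes. A peak within 1 kb of a listed start, or of either end of the span for genes without a listed start, was present for 6 of the 8 genes: Kiss1, Kiss1r, Esr1, Esr2, Pgr and Prlr. The share over all protein-coding genes was 68.7%. Among the 7 with a listed start the count was 6, beside 68.3% of the 17492 protein-coding genes with one. Tac2 and Gnrh1 had no such peak. In bulk tissue, fewer nuclei carrying the mark and less mark per nucleus cannot be told apart, and genes used by few cells are read here as an average over all of them.

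The 6 start peaks spanned folds from 1.95 at Kiss1 to 7.86 at Prlr, in the order Kiss1 1.95, Esr2 3.61, Esr1 3.88, Kiss1r 6.23, Pgr 6.98 and Prlr 7.86. Their median was 5.05, against 8.84 for all protein-coding genes with a start peak. This order rests on overlap within 1 kb of a listed start. That of Kiss1 lies 5325 bp into its span, and a peak of fold 3.83, above that of Esr2, covers the upstream end. Within 2500 bp the Esr1 peak of fold 8.66, which begins 1767 bp past its second start, would also count and would place Esr1 above Prlr, and by summit the peak of Pgr would not count. No spread exists with which to say which neighbours in the order differ.

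**Figure D1:**
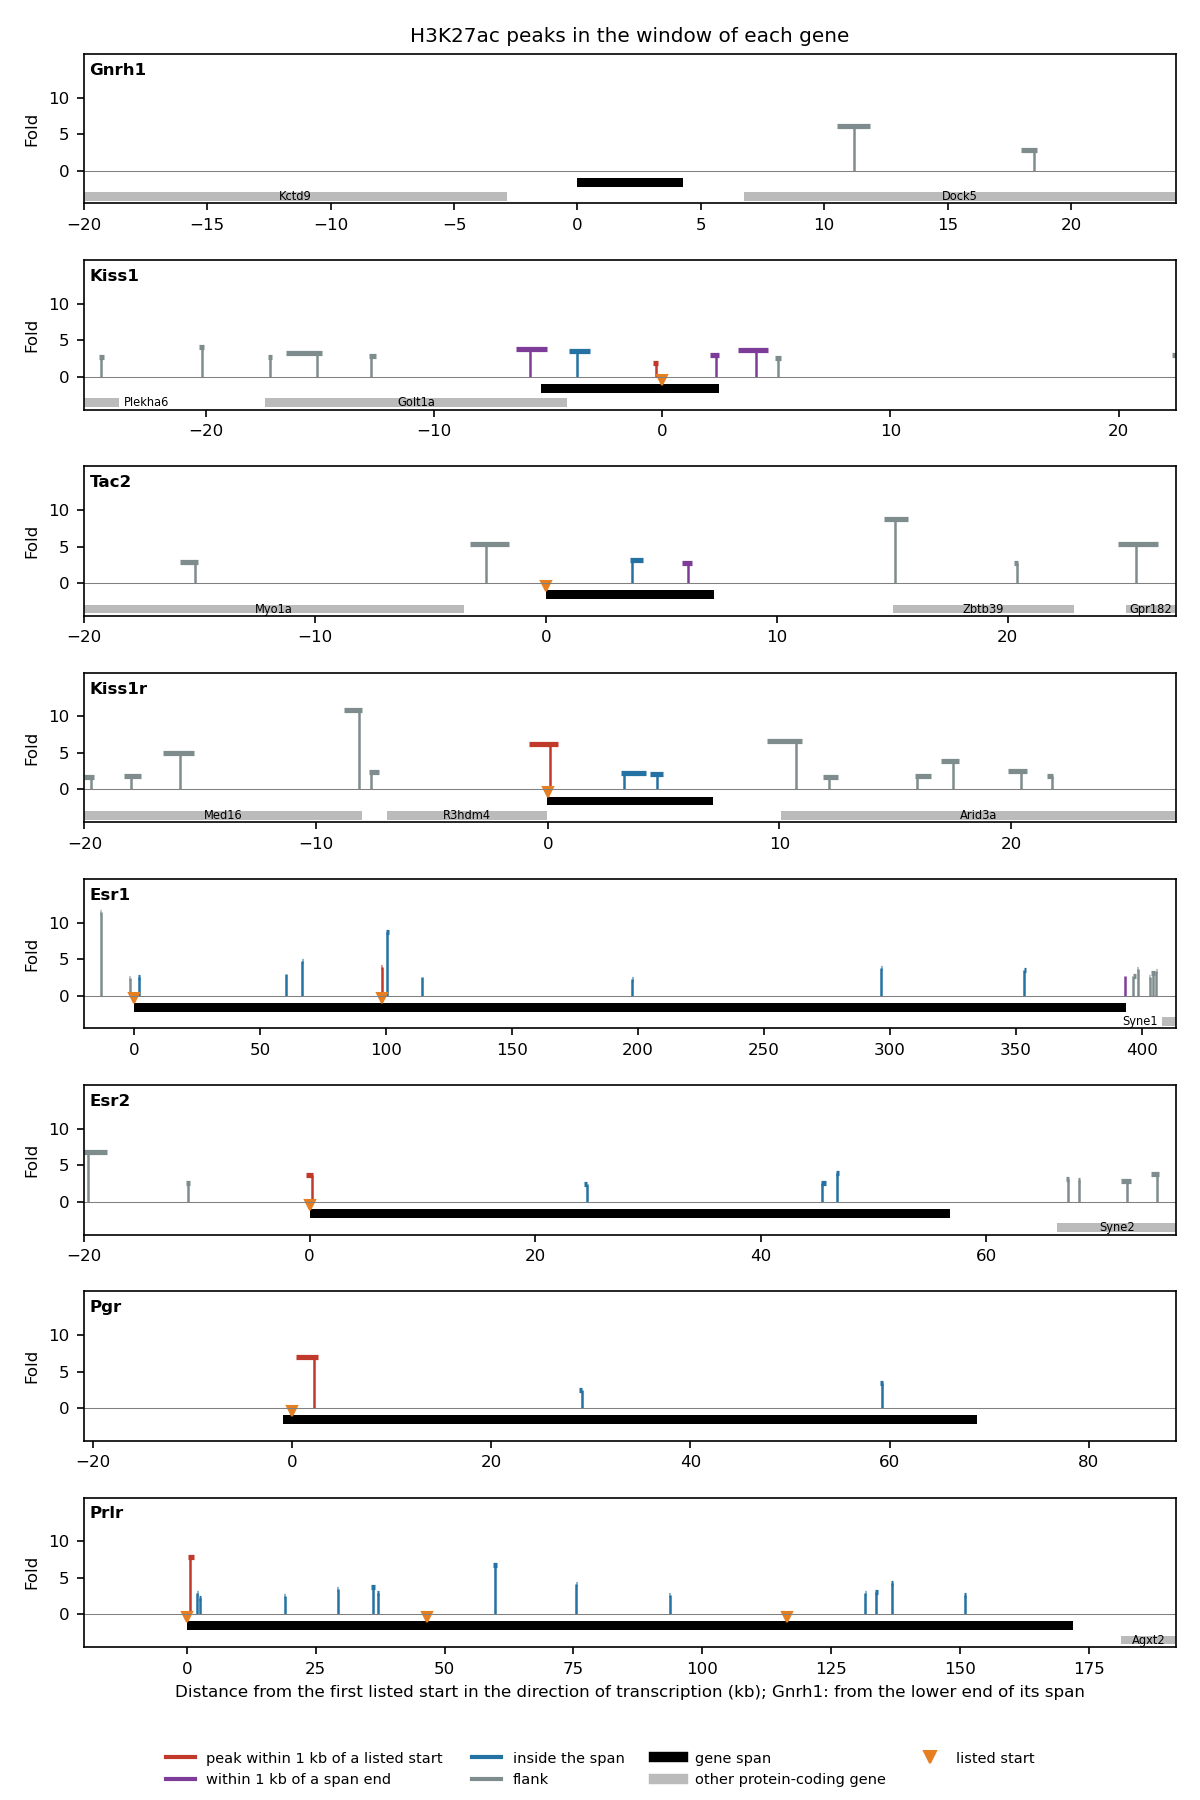
Fold (vertical axis, linear) of each of the 79 H3K27ac peaks against distance in kb from the first listed start in the direction of transcription (for Gnrh1, from the lower end of its span), 1 panel per gene, with flat bars for peak width, lines at the summit, black bars for the gene, grey bars for other protein-coding genes and triangles for listed starts. The tallest peak of Esr1 lies before the gene, and Pgr and Prlr have no peak outside their spans. In the Kiss1 window no fold reaches the upper quartile of the list, 4.24.

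Gnrh1 (chr14:67745181-67749440, a span of 4260 bp) had no peak in the gene itself, the only one of the 8 for which this held. Its window held 2 peaks, both inside the neighbouring gene Dock5, a guanine nucleotide exchange factor. The nearer peak (chr14:67755696-67757050, 1355 bp wide) began 6256 bp above the span and had a fold of 6.07 and a −log10 q of 39.1. The other (chr14:67763172-67763801) had a fold of 2.89 and a −log10 q of 7.55. Both were nearer to Dock5 than to Gnrh1, and no peak remained with 5 kb flanks.

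Kiss1 (chr1:133321887-133329722, 7836 bp) showed the opposite layout, with many peaks of at most moderate fold. Its window held 12, which covered 14.8% of the bases, a share above that of 81.6% of protein-coding genes. Yet the folds ran only from 1.95 to 4.12, and Kiss1 was the 1 gene of the 8 with no peak at or above the upper quartile of the list. The highest fold in the window exceeded that of only 22.2% of protein-coding genes. A peak at or above that quartile was present in the windows of 77.4% of protein-coding genes.

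The only listed start of Kiss1 lies 5325 bp into the span. Its start peak (chr1:133326805-133327033) was narrow, at 229 bp, and ended 179 bp before this start. It overlapped 72 of the 300 promoter bases, and its −log10 q was 4.33. Only 2.77% of peaks in the list had a lower fold than its 1.95. Stronger peaks lay around the body of the gene. One of fold 3.83 (chr1:133320812-133322159) covered the upstream end of the span, where Kiss1 overlaps Golt1a, and its summit lay in Golt1a. Another of fold 3.60 lay inside the gene (chr1:133323136-133324039), and a peak of fold 3.68 and 1287 bp lay just past its 3′ end (chr1:133330546-133331832, −log10 q 23.5). The highest, of fold 4.12, was a 244 bp peak in no annotated protein-coding gene, 20047 bp upstream of the start (chr1:133306922-133307165).

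Tac2 (chr10:127724478-127731768, 7291 bp), the neurokinin B gene, had 7 peaks that covered 13.8% of its window, above 77.6% of protein-coding genes. None lay within 1 kb of its start. The nearest (chr10:127721209-127722887, 1679 bp, fold 5.30, −log10 q 51.8) ended 1591 bp before the start and lay within 1 kb of the end of Myo1a, a myosin gene. Inside Tac2 there were 2 peaks, of fold 3.22 (chr10:127728127-127728696) and 2.77 (chr10:127730357-127730826). The strongest of the window, of fold 8.82 and −log10 q 129, lay at the start of the zinc finger gene Zbtb39 (chr10:127739111-127740174). A further peak of fold 5.31 lay inside Gpr182. Thus 2 of the 7 peaks were nearer to Tac2 than to any other protein-coding gene.

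Kiss1r (chr10:79916952-79924088, 7137 bp), the kisspeptin receptor, lay in the most densely covered window of the 8. Its 14 peaks covered 23.9% of the bases, more than in 99.2% of protein-coding genes and 98.9% of those in the same decile of window length. A peak of 1237 bp, fold 6.23 and −log10 q 209 (chr10:79916166-79917402) spanned the start and all 300 promoter bases. It cannot be assigned to Kiss1r alone, since the start of R3hdm4 lies 41 bp away on the minus strand.

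Within the body of Kiss1r there were 2 peaks of low fold, 2.23 and 2.14. Their −log10 q, 16.6 and 13.7, lay above the list median of 13.1. The 2 peaks of highest fold belonged to the neighbours by position: fold 10.9 and −log10 q 423 at the start of Med16, a Mediator subunit (chr10:79908194-79908958), and fold 6.60 in Arid3a (chr10:79926414-79927956). Of the 14 peaks, 10 had their summit inside another protein-coding gene, and 3 were nearer to Kiss1r than to any other.

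Esr1 (chr10:4611989-5005633, 393645 bp), which encodes estrogen receptor alpha, was the longest gene and had the most peaks, 17. These covered 2.15% of the window, more than in 26.2% of protein-coding genes and 19.9% of those in the same decile of window length. At the first listed start no peak lay within 1 kb. The nearest ones were weak, of fold 2.46 (chr10:4609750-4610388), ending 1601 bp before it, and 2.60 (chr10:4613610-4614128), inside the gene.

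The second listed start, 98169 bp into the span, was marked. A peak of 368 bp, fold 3.88 and −log10 q 21.2 (chr10:4709934-4710301) covered it and 274 of the 300 promoter bases. The strongest peak inside Esr1 followed 1767 bp past this start (chr10:4711925-4713037, 1113 bp, fold 8.66, −log10 q 96.8). One of fold 4.77 lay between the starts (chr10:4678364-4678937).

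The highest fold in the 20 kb windows, 11.5, belonged to a peak of 501 bp upstream of Esr1 (chr10:4598421-4598921, −log10 q 109), which ended 13068 bp before the span in no annotated protein-coding gene. Of the list, 97.5% had a lower fold. Elsewhere Esr1 was sparse: no peak lay from 4809932 to 4908331, a stretch of 98400 bp or 25.0% of the span. At and after the 3′ end, 6 peaks of fold 2.61 to 3.68 stood close together, from 5005219 to 5018025. Of the 17 peaks, 14 were nearer to Esr1 than to any other protein-coding gene.

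Esr2 (chr12:76120419-76177259, minus strand, 56841 bp), the gene of estrogen receptor beta, had 10 peaks covering 6.11% of its window, above 45.1% of protein-coding genes. Its start lay within a peak of 587 bp, fold 3.61 and −log10 q 12.5 (chr12:76176966-76177552), which held all 300 promoter bases. Of all protein-coding genes with a start peak, 8.93% had a lower fold there. Inside the gene the folds were 3.90 (chr12:76130334-76130536), 2.60 and 2.38. The strongest peak of the window (chr12:76195255-76197359, 2105 bp, fold 6.79, −log10 q 55.9) began 17996 bp upstream and was nearer to another gene, and 4 more lay inside Syne2, past the 3′ end. The highest of these 4 (chr12:76101929-76102617) had a fold of 3.80.

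Pgr (chr9:8898900-8968611, 69712 bp), the progesterone receptor gene, had the fewest peaks for the length of its window: 3, all inside the gene. Most of the signal was in 1 broad peak at the 5′ end (chr9:8900193-8902450). At 2258 bp it was the widest of the 79, with a fold of 6.98 and a −log10 q of 179. It began 360 bp after the listed start and overlapped none of the promoter bases, and its summit lay 2138 bp past the start. Counted by the summit and not by overlap, Pgr therefore had no peak within 1 kb of its start, which leaves 5 of the 8 genes. The other peaks of Pgr had folds of 2.53 (chr9:8928645-8928957) and 3.39 (chr9:8958876-8959187). No other protein-coding gene lay in the window.

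Prlr (chr15:10177238-10349190, 171953 bp), the prolactin receptor gene, had 14 peaks, and like those of Pgr all lay within the gene. The strongest (chr15:10177452-10178547, 1096 bp, fold 7.86, −log10 q 119) began 214 bp after the first listed start. Of all protein-coding genes with a start peak, 42.1% had a lower fold there. The second start and the third had no peak within 1 kb, the nearest being 9492 bp and 15089 bp away. Prlr and Pgr were the 2 genes whose highest peak lay at the start. In the body of Prlr a peak of fold 6.72 and −log10 q 44.1 (chr15:10236577-10237347) was the next highest, followed by 4.31 (chr15:10313931-10314207) and 4.12 (chr15:10252648-10252932), and the remaining 10 had folds of 2.29 to 3.76.

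Across the 79 peaks, 6 lay at a listed start, 5 at an end of a span, 30 deeper inside and 38 in the flanks. By position, 45 were nearer to their own gene than to any other protein-coding gene, and 25 had their summit inside another one. None of the 25 was in the windows of Esr1, Pgr or Prlr, where the flanks held few or no other genes. The strongest peak of the window was nearest to its own gene for 3 of the 8, Esr1, Pgr and Prlr.

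The median fold of the 79 peaks was 2.98 and the median −log10 q 11.4, both a little below the list, and the median width was 478 bp. Peaks of fold over 6 made up 13.9% of the 79 and 11.3% of the list. Those at or above the upper quartile made up 20.3% of the 79 and 25.0% of the list. The 11 of fold over 6 fell in every window but that of Kiss1, and those in the windows of Gnrh1, Tac2 and Esr2 lay in the flanks. Fold and −log10 q did not order the peaks alike. In the Kiss1r window a fold of 2.23 came with a −log10 q of 16.6, while in Esr1 a fold of 2.53 came with 4.95.

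**Figure D2:**
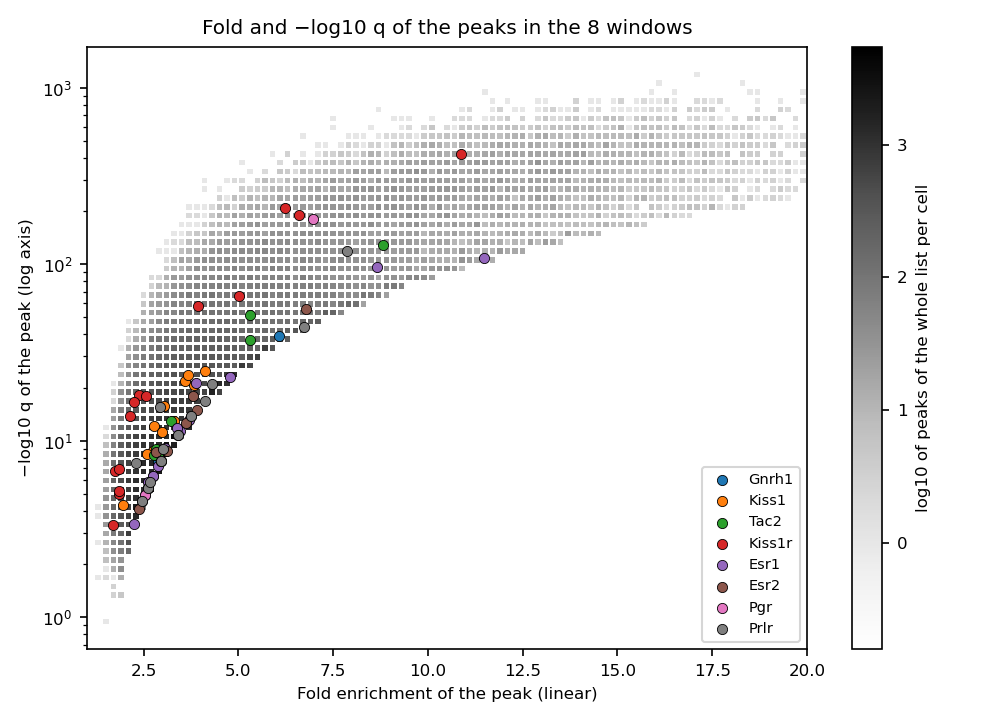
Fold (horizontal axis, linear, shown to 20) and −log10 q (vertical axis, log) of the 79 peaks, coloured by gene, over the list in grey, darker where more of its peaks fall. Peaks of Kiss1r reach a given −log10 q at a lower fold than those of Esr1, Esr2, Pgr and Prlr.

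The genes differed in how their marks were spread. The long genes Esr1, Pgr and Prlr had 2.15%, 2.63% and 2.75% of the window covered, and the short genes Kiss1, Tac2 and Kiss1r 13.8% to 23.9%. Gnrh1, also short, had 4.48%. The median over the 8 was 5.30%, against 7.20% over all protein-coding genes, and the median of the highest fold was 7.42 against 8.85. Windows of long genes hold less of their neighbours, so the share of the span alone was also taken: 28.8% for Kiss1r, 23.1% for Kiss1, 14.3% for Tac2, 4.14% for Pgr, 3.39% for Prlr, 2.21% for Esr2, 1.15% for Esr1 and 0% for Gnrh1. The median over all protein-coding genes was 7.29%.

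**Figure D3:**
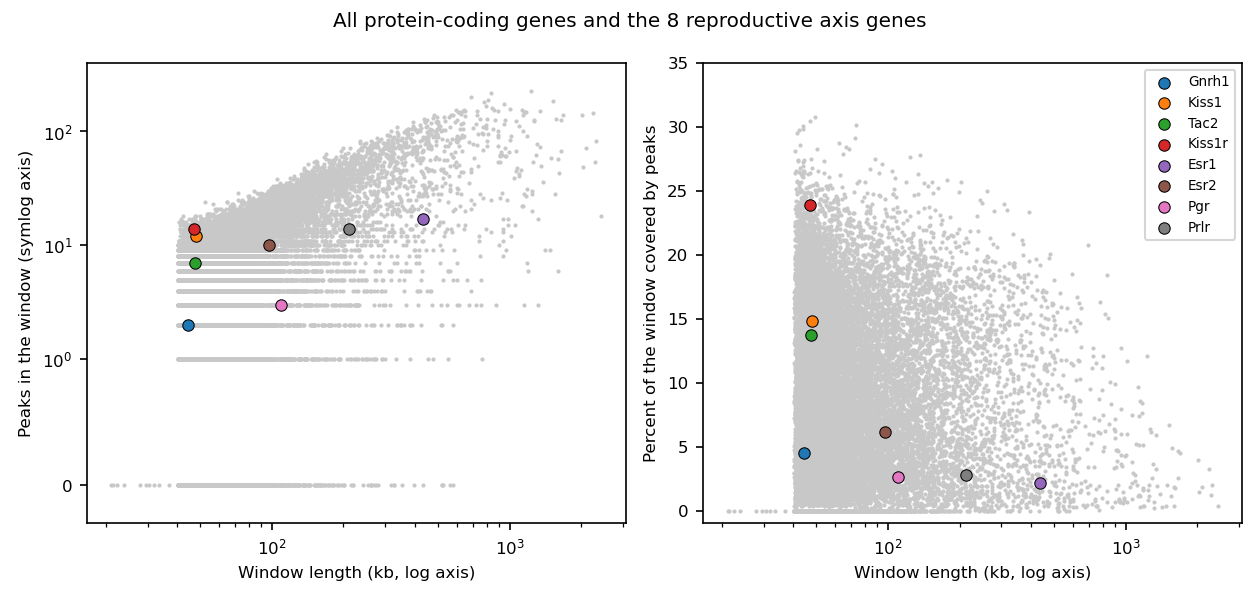
Number of peaks in the window (left, log axis that is linear near 0) and percent of the window covered by peaks (right, linear) against window length in kb (log axis), with the 8 genes in colour and all protein-coding genes in grey. Esr1, Pgr and Prlr lie low in percent covered, and Kiss1r lies near the top at 23.9%.

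The promoters of the 8 genes differed in CpG content, given as the number of CpG observed over that expected from the C and G content. It was lowest at Kiss1, 0.109, followed by the second Prlr start, 0.134, and Tac2, 0.171, and was highest at Kiss1r, 0.620. Among all protein-coding promoters with a ratio of 0 to 0.2, 21.2% had a peak within 1 kb. Of the 3 starts of the 8 genes in this range, 1 did, that of Kiss1, and those of Tac2 and the second Prlr start did not. From 0.2 to 0.4 the share over all was 48.1%, and the 1 start there, the first of Esr1, had none. From 0.4 to 0.6 it was 80%, beside 4 of 5, all but the third Prlr start. From 0.6 to 0.8 it was 94.3%, and the 1 start there, that of Kiss1r, had a peak. Of these ranges, 2 hold 1 start each. The median fold of all marked promoters was 3.97, 7.88 and 9.23 in the ranges that hold the 6 start peaks, from low to high ratio, and each of the 6 lay below the median of its range, Prlr by little (7.86 against 7.88).

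**Figure D4:**
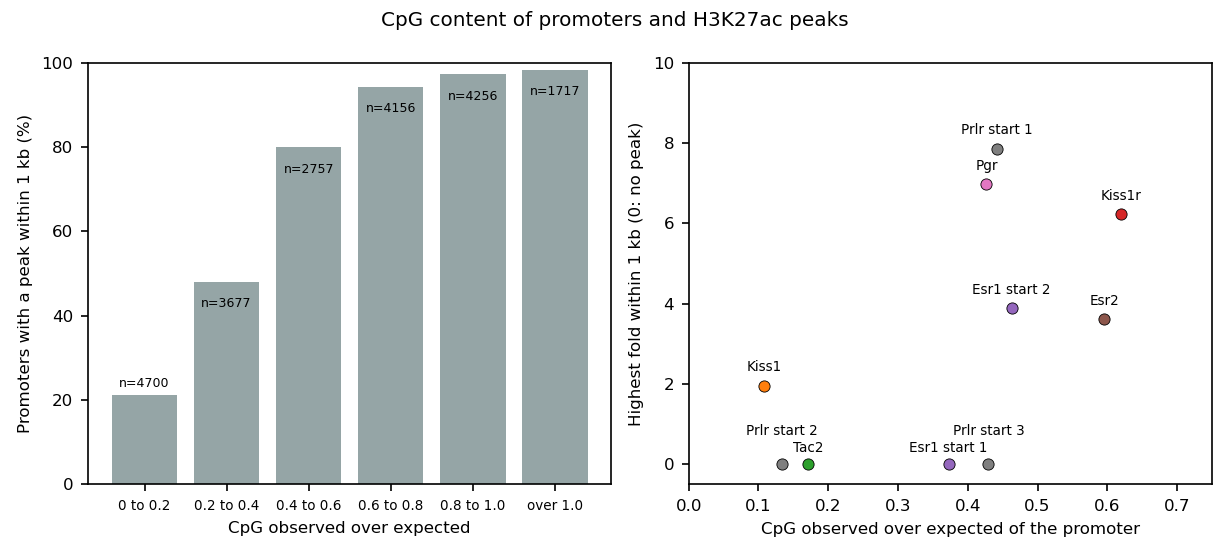
Left, percent of protein-coding promoters with an H3K27ac peak within 1 kb of the start, by CpG observed over expected, with the number of promoters in each bar. Right, highest fold within 1 kb of each of the 10 listed starts against that ratio, where 0 means no peak: the 4 starts without a peak have ratios up to 0.430.

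The wider network was described by 6 gene lists, in which a start peak means one within 1 kb of a listed start, or of either end where none is listed, and the share over all protein-coding genes is 68.7%. In the GnRH pulse network, 16 of 20 genes (80.0%) had one, with a median fold of 5.26. This list holds genes of peptides, receptors, enzymes and a transporter linked to signalling by or onto GnRH or kisspeptin neurons. The highest were Oprk1, the kappa opioid receptor, at 11.2, Vipr2, a receptor of vasoactive intestinal peptide, at 10.6 and Gucy1a1, a guanylate cyclase subunit, at 8.73. The peaks of Vipr2 and Gucy1a1 also lay at other annotated genes, Gm46383 and Gm29921. Oprk1 has no listed start, so its fold is that at an end of its span. Gnrhr, the receptor of the Gnrh1 peptide, Nos1, Npvf and Vip had none. Tacr3, the receptor of neurokinin B, had a fold of 5.13 at its start and Pdyn, the dynorphin precursor of arcuate kisspeptin neurons, 5.39. Tac2 had no peak within 1 kb of its start, but within 2500 bp its peak of fold 5.30 would count.

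Of sex steroid receptors, partners and enzymes, 16 of 19 (84.2%) had a start peak, with a median fold of 7.97. Srd5a1, a steroid 5-alpha-reductase, had 16.9 at a start shared with Nsun2, Hsd17b4 had 13.8 and Greb1, an estrogen-regulated gene, 9.97. Hsd17b4 has no listed start, so its fold is that at an end of its span. Aromatase, Cyp19a1, which makes estradiol, had none, nor did Akr1c18 and Hsd17b1. In prolactin signalling 15 of 16 (93.8%) had one, with a median of 7.27, led by Stat3 at 12.8 (also at Gm46295), Stat5b at 10.5 and the phosphatase gene Ptpn11 at 10.2. Jak2 had 8.27 and Stat5a 6.05. The gene without a peak was Prl, the hormone itself.

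Of genes for GnRH neuron development and puberty timing, 17 of 22 (77.3%) had a start peak, with a median of 4.70. Counting only folds from the upper quartile on, it was 9 of 22, beside 59.4% of all protein-coding genes. Fgfr1 had 10.1 (also at Gm31288), Dmxl2 8.71 and Chd7 6.21, and Lin28b, Nhlh2, Nr5a2, Sema3a and Tbx2 had none. For Fgfr1 and Chd7, which have no listed start, the fold is that at an end of the span. Pituitary markers stood low, with 2 of 13 (15.4%), Tbx19 at 2.96 and Foxl2 at 2.24, and no peak at the starts of Cga, Fshb and Gh among others. Hypothalamus markers had 15 of 16 (93.8%) and a median of 4.22, and Pomc had none. They were led by Agrp at 9.70 (also at Atp6v0d1 and Gm38250), Rax at 8.61 and Crh at 6.36 (also at Gm42189). Agrp, Rax and Crh have no listed start, so their folds are those at an end of the span, which may not be the promoter. Gnrhr and Prl are each in the pituitary list and in another of the lists. The medians of all 6 lists, like that of the 8 genes, lay below the 8.84 over all protein-coding genes with a start peak.

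**Figure D5:**
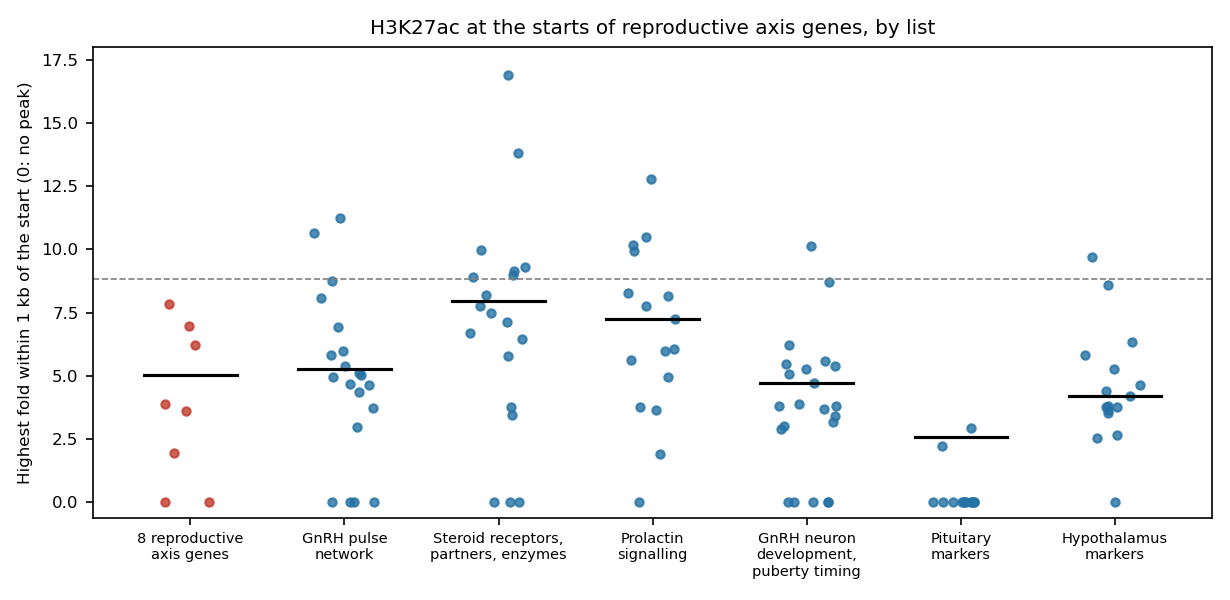
Highest fold within 1 kb of the start (vertical axis, 0 where there is none) for the genes of the 6 lists and the 8 described genes. For genes without a listed start, either end of the span was used. Black bars are medians over genes with a start peak, and the dashed line is the median of 8.84 over all protein-coding genes with one.

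Likeness was measured over the 103 distinct list genes as the distance between 2 percentiles, those of highest fold and of percent covered in the window, in this 1 list and not across samples. Esr1 was nearest to Cyp19a1 (distance 1.38 percentile points) and Prlr to Tacr1 (1.54). Pgr was nearest to Esrrb (3.42), Kiss1r to Sox10 (3.54), Esr2 to Tac1 (3.82), Gnrh1 to Prokr2 (4.50), Tac2 to Esrra (4.66) and Kiss1 to Th (6.85).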

How the data were processed

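H3K27ac CUT&Tag of 3 mouse hypothalamus samples was read from 1 deposited peak list, and the Paired-Tag libraries were not analysed here. Build mm10 and, without roles, UMI-tools 1.1.4, STAR 2.7.10a, BWA 0.7.17, MACS2 (unversioned) and cutadapt 4.5 are listed in the submitters' processing notes. How peaks were called, against which background, how replicates were combined and whether regions were filtered is not given in the sources used here. Per peak, the deposited list holds a score (not used), a linear fold ratio, the −log10 of a p-value (not used) and of a q-value, and the offset of the summit, in unnamed columns read by their order in the format. The fold ratio and −log10 q deposited by the authors are values of each peak and served only to describe or rank peaks within the list. A low fold, and whether a peak is listed at all, depend on that calling. Depth is unknown.

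Peaks were assigned to a gene when they overlapped its RefSeq span (GRCm38.p6) and 20 kb flanks by at least 1 bp, and to a start within 1 kb of a start in the RefSeq promoter table, or of either span end where none is listed, as for Gnrh1. The tables used give no exons. Coordinates are 1-based. Percentiles are over 21887 protein-coding genes, and over those in the same decile of window length. Motifs were matched exactly on both strands. The members and lists were chosen with earlier results of these data known. Named by rule were all members, their start peaks and the 3 peaks of highest fold per window, and in each list the 3 genes of highest start fold and up to 3 first in the alphabet without a start peak. Other peaks given, and Tacr3, Pdyn, Jak2, Stat5a, Vip, Sema3a and Tbx2, were named after their values were seen. Likeness used Euclidean distance. The gene Sts was not matched. The overlap scripts (Python 3.11.15, numpy 2.4.6, pandas 2.3.3, matplotlib 3.10.9) were checked on simulated intervals. With 11 alternatives, thresholds, flanks, start windows and assignment were varied.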

Additional observations from a re-analysis of the deposited data

How the results depend on the processing

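All 8 genes kept a peak in the window under the main choice, with summits in place of overlap, with −log10 q above the list median and with flanks of 10 kb or 50 kb. The count was 7 with 5 kb flanks or when no other protein-coding gene was allowed to be nearer to the peak (Gnrh1 lost), and 7 when only folds from the upper quartile on were counted (Kiss1 lost). Over all protein-coding genes the share was 81.4% by summit, 79.2% by −log10 q and 77.4% by that quartile. With flanks of 5 kb, 10 kb and 50 kb it was 77.5%, 79.2% and 85.1%. The 79 peaks became 33 with −log10 q above the median, 16 from the upper quartile of fold on, 48 with 5 kb flanks, 128 with 50 kb flanks and 45 when nearest to the gene. The 6 genes with a start peak became 3 (Kiss1r, Pgr and Prlr) from that quartile on, 4 with −log10 q above the median, 5 by summit and 7 with a start window of 2500 bp (Tac2 gained). In the same order, the share over all protein-coding genes was 59.4%, 64.6%, 66.6% and 71.7%, against 68.7% under the main choice. With either end of the span in place of the start the count was again 6, beside 69.2% of all protein-coding genes, but Pgr was lost and Tac2 gained. From that quartile on, the start counts of the lists moved by over 1.5 times for hypothalamus markers (15 to 7), puberty genes (17 to 9) and pituitary markers (2 to 0), and pituitary markers ranged from 0 to 4 over the alternatives. By construction, stricter rules and shorter flanks count fewer peaks. No replicate could be left out, since the list stands for the samples together. No paired analysis was possible because the list carries no value per replicate. What depth limits cannot be given, because the list holds no counts.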

Other observations

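With flanks of 50 kb, Pgr still had 3 peaks, and Gnrh1 had 5, of which the highest had a fold of 13.8. That peak lies outside the 20 kb window of Gnrh1, where the highest fold was 6.07, and it was not assigned to a gene.

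Many peaks of the list had the same fold and the same −log10 q as others. Of 79 peaks near the 8 genes, 28 had a pair of values that at least 100 peaks of the list shared: 11 of 17 at Esr1, 7 of 10 at Esr2, 2 of 3 at Pgr and 8 of 14 at Prlr. Gnrh1, Kiss1, Tac2 and Kiss1r had 0. Over the list, 61 such pairs accounted for 28.4% of peaks.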
